A study of Mus musculus with 31 samples.

Results

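The 33 genes described here are type I interferon-stimulated genes of the mouse, the genes that cells switch on when a type I interferon binds its receptor. They were chosen by gene symbol from a list and not by their measured change, though with earlier results of these data known. All 33 were found among the 55401 genes of the deposited tables. RNA was measured in 12 libraries of sorted astrocytes, a glial cell type that turns reactive during inflammation. The mice were female C57Bl/6 animals of 10 weeks, and the title of every library carries the prefix SPF. In the groups labelled 1X cytokine and 2X cytokine, a PBS solution of 2 cytokines, with 100 ng/mL of IL-1β together with 50 ng/mL of TNF-α, went into the lateral ventricles of the brain, and in the groups labelled 1X PBS and 2X PBS only PBS was injected. The 2X groups had a second injection on day 7, the 1X groups were injected on day 7 only, and cells were sorted 18 to 24 hours after that day's injection. Each group has 3 libraries. TNF-α is the sole cytokine in the short description of these samples, whereas IL-1β appears beside it in the protocol. The labels do not say whether a library is 1 animal or a pool, and no source used here names the sort markers. The series also has 19 ATAC-seq samples, not analysed here.

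Type I interferons signal through a receptor of the subunits IFNAR1 and IFNAR2 and the kinases JAK1 and TYK2. These activate STAT2, which acts with IRF9 at a promoter element called ISRE. The genes that follow include sensors of foreign RNA and DNA, proteins that bind or cut viral RNA, membrane proteins that hinder virus entry or release, and the ubiquitin-like protein ISG15 with its enzymes. In the brain, astrocytes and microglia both carry the receptor and respond to it.

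The promoters of the 6 most abundant genes with an ISRE core are shown because they carry the sequence that the group is known by. The core searched was GAAANNGAAA on both strands, in windows of RefSeq promoters (GRCm38.p6) that run from 250 bases before the start of a gene to 50 bases after it. A window was given for 24 of the 33 genes. It held the core in 13 of them, which is 54.2%, against 3.99% of the 27025 genes with a window. The GAS core TTCNNNGAA, a site for STAT dimers, was in 7 of the 24, or 29.2%, against 9.55% of all genes, and the kappaB consensus was in 3, or 12.5%, against 6.55%. In the windows of Ifitm3 and Bst2 a GAS match overlaps an ISRE match. Each line below gives 80 bases, read 5′ to 3′ on the strand of the gene, and capitals mark every base of an ISRE core. TTTC blocks are the core on the opposite strand.
Ifitm3, chr7:141010715-141010794, minus strand: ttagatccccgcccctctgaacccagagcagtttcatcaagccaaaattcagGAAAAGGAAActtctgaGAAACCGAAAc
Bst2, chr8:71537557-71537636, minus strand: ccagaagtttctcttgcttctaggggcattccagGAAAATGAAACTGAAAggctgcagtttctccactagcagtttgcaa
Ifit3, chr19:34583367-34583446, plus strand: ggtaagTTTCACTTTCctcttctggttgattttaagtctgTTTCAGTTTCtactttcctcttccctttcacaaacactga
Isg15, chr4:156200845-156200924, minus strand: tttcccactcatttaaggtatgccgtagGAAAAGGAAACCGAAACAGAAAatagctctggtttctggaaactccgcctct
Ddx58, chr4:40239796-40239875, minus strand: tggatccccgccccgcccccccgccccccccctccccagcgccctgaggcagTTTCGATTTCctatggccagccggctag
Ifit3b, chr19:34607763-34607842, plus strand: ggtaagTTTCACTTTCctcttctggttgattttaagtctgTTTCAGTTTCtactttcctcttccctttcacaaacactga
The Ifit3 and Ifit3b windows share an identical run of 169 bases, which holds both cores. In Isg15 the 3 matches overlap in 1 run, and in Ifitm3 and Ddx58 the first matched base lies 3 bases into the transcript.

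Library totals ran from 1878418 to 5521679 estimated counts, and the 33 genes together took between 0.068% and 0.164% of them. Levels of different genes are compared below in TPM, which corrects for transcript length, and libraries are compared in CPM, which are counts scaled to library totals after TMM normalization. In bulk RNA, fewer cells of a type and less RNA per cell cannot be told apart. Marker genes of astrocytes other than Gfap summed to 5660, 12200 and 12900 TPM in 1X cytokine and 14900, 3700 and 2920 TPM in 1X PBS. The sums were 12100 to 14300 TPM in 2X cytokine and 10000 to 11100 TPM in 2X PBS. None of these 11 genes was at 0 in any library. Markers of choroid plexus summed to 39300, 17400 and 29400 TPM in 1X cytokine and 11800, 34700 and 29400 TPM in 1X PBS. Their sums were 5620, 11400 and 21300 TPM in 2X cytokine and 21000, 19400 and 22000 TPM in 2X PBS.

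Libraries of the same 1X label differed from each other. In most libraries the level of a reactive marker ran against what is known of the cytokines. Lcn2, an acute-phase gene that inflammatory cytokines are known to induce in astrocytes and that neutrophils also carry, stood at 797, 11.5 and 3.85 CPM under the 1X cytokine label and at 5.33, 1080 and 776 CPM under the 1X PBS label. Under the 2X cytokine label it stood at 15.0, 2.26 and 1.2 CPM, and under the 2X PBS label at 570, 363 and 425 CPM. Gfap, whose product forms the astrocyte's intermediate filaments, had 725, 233 and 153 CPM in 1X cytokine and 189, 701 and 585 CPM in 1X PBS, and 150, 119 and 113 CPM in 2X cytokine against 1140, 1040 and 1090 CPM in 2X PBS. Replicate 1 of 1X cytokine and replicate 1 of 1X PBS thus stood apart from the other libraries of their labels. With Lcn2 high under cytokine and low under PBS, these 2 libraries followed what is known of the cytokines. The other libraries of both 1X labels ran against it. Lcn2 was also lower in every library labelled 2X cytokine than in any labelled 2X PBS. Whether labels were exchanged was not tested, and an exchange between a pair of groups would turn the sign of every fold change between them. Every direction below is that of the labels. Counts over both 1X groups are also given without replicate 1 of 1X cytokine and replicate 1 of 1X PBS. This choice was made after the data were seen, and it leaves out the 1X libraries whose Lcn2 ran in the known direction. The summed level of 10 neutrophil markers was high in the same libraries as Lcn2, at 1500, 53.7 and 72.5 TPM in 1X cytokine, 74.9, 3030 and 3260 TPM in 1X PBS, 476, 126 and 24.3 TPM in 2X cytokine, and 1100, 957 and 839 TPM in 2X PBS. Not every marker followed the sum: Ngp and Ltf, genes of neutrophil granules, were highest in 2X cytokine replicate 1, at 37.1 and 26.1 CPM, against at most 7.39 and 6.69 CPM in 2X PBS. Monocyte and macrophage markers summed to 58.0 to 579 TPM in 1X cytokine, 53.6 to 2170 TPM in 1X PBS, 26.5 to 135 TPM in 2X cytokine and 614 to 620 TPM in 2X PBS. At most 2 of the 10 neutrophil and 4 of the 12 monocyte markers were at 0 in a library. The part of these cells in the results below was not tested.

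The 33 genes differed widely in level. Ifitm3, a membrane protein that hinders virus entry, averaged 887 TPM over the 12 libraries and made up 50.2% of the summed TPM of the 33 genes. Ifi27, a mitochondrial protein gene, followed with 319 TPM, and Lgals3bp, a secreted glycoprotein that binds galectins, with 147 TPM, so that these 3 genes held 76.6% of the sum. Bst2, known as tetherin, averaged 63.1 TPM, Ifit3 49.0 TPM, Isg20 36.6 TPM, Isg15 25.9 TPM and Ifi35 24.8 TPM. At the low end stood Oas2 with 0.927 TPM, Trim21 with 1.02 TPM, Mx1 with 2.04 TPM and Ifi44 with 2.19 TPM. The longest Mx1 transcript, a coding one of 3385 bases, was at 0 TPM in every library, and Mx1-202 is annotated as a polymorphic pseudogene. Mx1, Trim21 and Ifi44 did not pass the filter on low counts, so 30 of the 33 genes were tested. Of the mean level of Ddx58, 46.6% came from a processed transcript of 435 bases and 25.8% from its full coding transcript of 3874 bases.

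The genes also differed in how much they varied between libraries. The coefficient of variation of CPM over the 12 libraries had a median of 38.2% over the 30 tested genes and was under 30% for 9 of them. Parp9, Stat2 and Eif2ak2 varied least, with 16.0%, 16.7% and 17.7%. Rsad2 and Isg20 varied most, with 115% and 113%, and their highest library stood 14.3 and 23.4 times above the lowest.

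**Figure D1:**
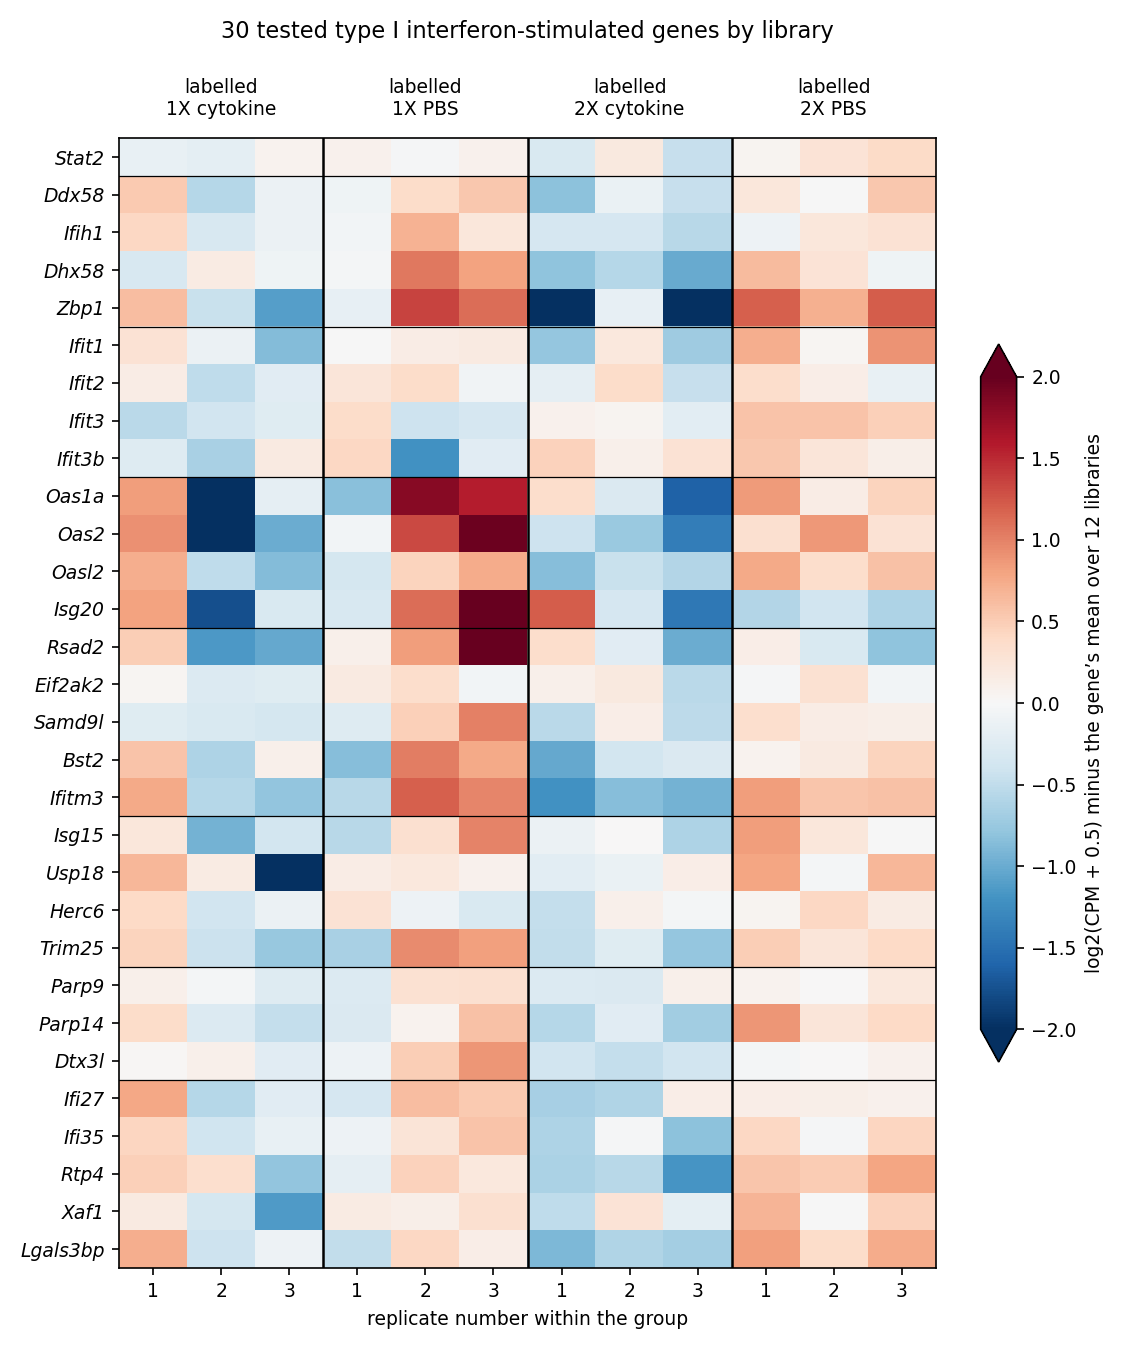
Heat map of the 30 tested genes (rows, ordered by role, with lines between roles) in the 12 libraries (columns, by label and replicate number); colour is log2(CPM + 0.5) minus the gene's mean over the 12 libraries. The 3 libraries labelled 2X cytokine are below the mean for most genes and the 3 labelled 2X PBS above it, while replicate 1 of 1X cytokine and replicate 1 of 1X PBS differ from the other 2 libraries of their labels; Isg20 and Rsad2 reach their highest level in 1X PBS replicate 3.

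Setting 2X cytokine against 2X PBS addresses the effect of repeated cytokine exposure. By label, means were lower in 2X cytokine for 28 of the 30 tested genes and higher only for Isg20 and Rsad2, with a median log2 fold change of -0.61 against 0 over all 14490 genes tested. None passed the threshold of 0.05 on the Benjamini-Hochberg adjusted p in edgeR's quasi-likelihood test on all 12 libraries, a fit that called 5 genes in all, or 0.0345%. An unadjusted p under 0.05 was found for 14 of the 30, all lower, and for 1402 of all genes. Counting libraries by CPM, 15 of the 30 were lower in every 2X cytokine library than in any 2X PBS library and 0 were higher, while 14.1% of all genes were lower in this way and 25.3% did not overlap in either direction. Of these 15, Ddx58, Dhx58 and Ifi35 overlapped when taken in TPM. Ifi35 had 13.7 to 26.1 TPM in 2X cytokine and 24.3 to 35.9 TPM in 2X PBS. In the fit of these 6 libraries alone, where the common biological coefficient of variation was 0.114 against 0.237 in the fit of 12, 7 of 28 genes fell, namely Ifitm3, Lgals3bp, Oasl2, Rtp4, Ifit3, Trim25 and Bst2. That fit called 7.74% of all genes and 5.31% as lower. Replicate 1 of both 1X groups enters this comparison through the filter, the scaling, the adjustment and the estimate of spread. Without these 2 libraries 8 of 32 genes fell, and 5.16% of all genes were called lower and 7.02% in either direction.

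**Figure D2:**
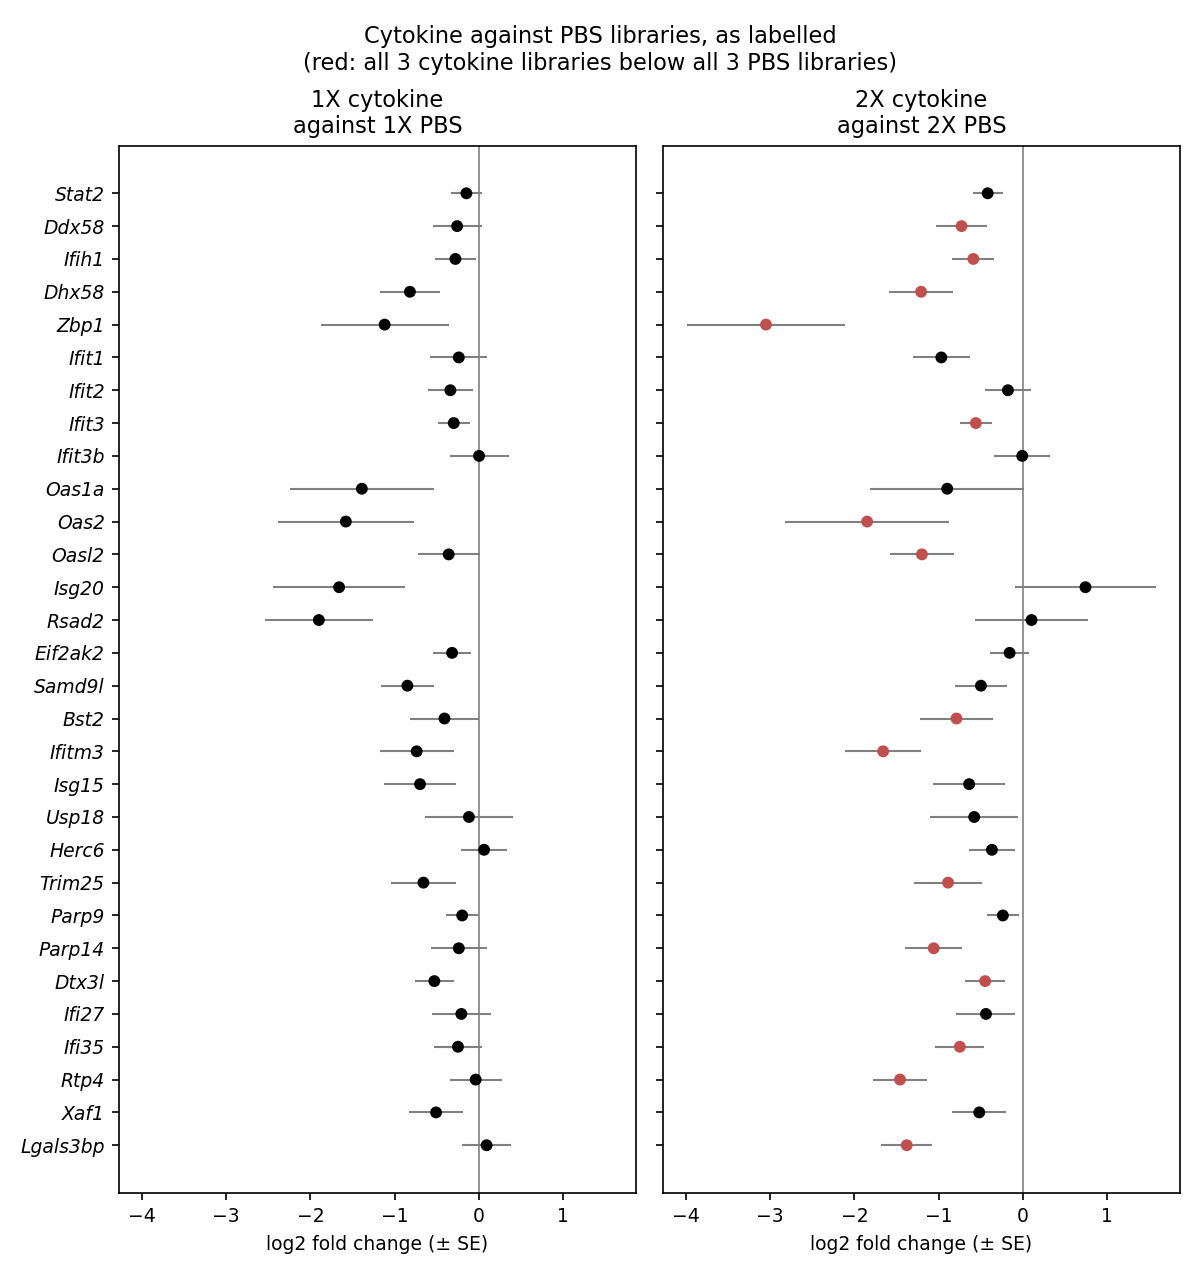
Log2 fold change with its standard error of each of the 30 tested genes, cytokine over PBS as labelled, in the 1X groups (left) and the 2X groups (right), from the edgeR fit of 12 libraries; red points are genes whose 3 cytokine libraries all lie below the 3 PBS libraries. There are 15 red points on the right and 0 on the left, and the medians are -0.61 on the right and -0.33 on the left.

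The signal transducer Stat2 (chromosome 10, bases 128270559 to 128292849 of GRCm38) had 21.4, 30.5 and 19.2 CPM in 2X cytokine and 27.5, 32.2 and 34.6 CPM in 2X PBS, and the groups overlapped through 2X cytokine replicate 2. It had 23.8, 23.0 and 28.0 CPM in 1X cytokine and 28.1, 26.0 and 28.3 CPM in 1X PBS, which overlapped as well. This transducer was thus among the steadiest of the 33 genes.

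All 4 sensors had lower CPM in each 2X cytokine library than in any 2X PBS library. In TPM this held for Ifih1 and Zbp1 but not for Ddx58 and Dhx58. Ddx58 had 16.5, 16.7 and 25.7 TPM in 2X cytokine and 18.2, 12.8 and 32.9 TPM in 2X PBS. Dhx58 had 7.52, 3.49 and 4.18 TPM in 2X cytokine and 7.26, 5.81 and 4.06 TPM in 2X PBS. Ddx58, which encodes the RNA sensor RIG-I, had 12.9, 21.1 and 16.8 CPM in 2X cytokine and 27.1, 23.1 and 34.1 CPM in 2X PBS. Ifih1, the sensor MDA5 of long double-stranded RNA, had 13.6, 13.6 and 11.7 CPM in 2X cytokine and 16.1, 20.4 and 21.3 CPM in 2X PBS. In the 1X groups both genes overlapped, with 33.7, 15.4 and 21.4 CPM of Ddx58 in 1X cytokine against 21.7, 29.9 and 33.9 CPM in 1X PBS, and 23.3, 13.8 and 15.9 CPM of Ifih1 in 1X cytokine against 16.7, 28.3 and 20.4 CPM in 1X PBS.

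Dhx58, the regulator LGP2 of both RNA sensors, had 2.5, 3.01 and 2.10 CPM in 2X cytokine and 7.62, 5.81 and 4.44 CPM in 2X PBS, a log2 fold change of -1.21 (SE 0.38, edgeR adjusted p = 0.396). Zbp1, a sensor of Z-form nucleic acids, had no count in replicates 1 and 3 of 2X cytokine and 1.51 CPM in replicate 2, against 4.66, 3.17 and 4.74 CPM in 2X PBS. At these depths a count of 0 allows up to 1.07 CPM in replicate 1 and 0.924 CPM in replicate 3, on unscaled totals. Its log2 fold change of -3.05 (SE 0.94, edgeR adjusted p = 0.377) rests on 0, 4 and 0 counts in 2X cytokine and 11, 18 and 16 counts in 2X PBS. Zbp1 had 2.95, 1.15 and 0.549 CPM in 1X cytokine and 1.52, 5.26 and 4.41 CPM in 1X PBS, with overlap.

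The IFIT proteins bind viral RNA and block its translation. Ifit3 (chromosome 19, bases 34583531 to 34588731) had 56.4, 55.0 and 45.9 CPM in 2X cytokine and 79.1, 78.7 and 73.7 CPM in 2X PBS, so the groups did not overlap. Its near copy Ifit3b had 32.1, 24.9 and 28.5 CPM in 2X cytokine and 33.9, 27.6 and 25.2 CPM in 2X PBS, which overlapped, and 19.4, 14.6 and 26.4 CPM in 1X cytokine. Of the 31-base words of the Ifit3 transcripts 61.8% also occur in those of Ifit3b, so the division of reads between both genes is uncertain. Ifit1 had 10.0 to 20.3 CPM in 2X cytokine and 18.0 to 33.2 CPM in 2X PBS, and Ifit2 had 8.70 to 15.8 CPM in 2X cytokine and 11 to 15.7 CPM in 2X PBS.

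Among the oligoadenylate synthetase genes, whose products activate or resemble activators of an RNA-cutting pathway, Oasl2 (chromosome 5, bases 114896936 to 114912234) had 13.9, 18.5 and 16.8 CPM in 2X cytokine and 43.2, 32.7 and 38.2 CPM in 2X PBS. These groups did not overlap, whereas the 1X groups did, with 42.5, 17.7 and 13.7 CPM in 1X cytokine and 19.8, 34.9 and 42.7 CPM in 1X PBS. The log2 fold change in the 2X groups was -1.2 (SE 0.38, edgeR adjusted p = 0.396). In the fit of 6 libraries its adjusted p was 0.00086, and over all alternatives it ranged from 0.00066 to 0.785. Oas2 had 1.07, 0.754 and 0.30 CPM in 2X cytokine and 2.12, 3.34 and 2.07 CPM in 2X PBS, without overlap. Oas1a had 0.90 to 5.00 CPM in 2X cytokine and 4.23 to 7.20 CPM in 2X PBS, with overlap, and 68.7% of its 31-base words also occur in Oas1g.

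Of the antiviral effectors, Ifitm3 (chromosome 7, bases 141009586 to 141010770) had 111, 142 and 133 CPM in 2X cytokine and 456, 378 and 385 CPM in 2X PBS. Every 2X cytokine library was below every 2X PBS library, and the log2 fold change was -1.66 (SE 0.45, edgeR adjusted p = 0.321). The fit of 6 libraries gave an adjusted p of 3.37e-06, and the range over alternatives was 1.99e-06 to 0.74. Ifitm3 was also high in 1X cytokine replicate 1, with 434 CPM against 173 and 149 CPM in the other 1X cytokine libraries, and low in 1X PBS replicate 1, with 174 CPM against 588 and 508 CPM in the other 1X PBS libraries. The 6 libraries with the most Ifitm3 were the 6 with the most Lcn2 and the 6 with the highest neutrophil marker sum. Bst2, which holds virus particles at the cell surface, had 11.8, 18.8 and 19.8 CPM in 2X cytokine and 25.8, 27.8 and 33.5 CPM in 2X PBS, again without overlap. Its 1X values were 36.6, 15.7 and 26.4 CPM in 1X cytokine and 13.3, 50.1 and 41.5 CPM in 1X PBS, with overlap. Eif2ak2, the RNA-activated kinase PKR, overlapped at 10.2 to 17.3 CPM in 2X cytokine and 14.5 to 18.7 CPM in 2X PBS, and Samd9l, an inhibitor of translation, at 7.14, 11.7 and 7.20 CPM in 2X cytokine and 13.5, 11.8 and 11.5 CPM in 2X PBS.

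In the ISG15 system, Isg15 itself had 7.85, 8.67 and 5.40 CPM in 2X cytokine and 15.7, 10.2 and 8.59 CPM in 2X PBS, which overlapped by a small margin. In the 1X groups it had 10.1, 4.22 and 6.59 CPM in 1X cytokine and 5.71, 10.8 and 17.6 CPM in 1X PBS. Usp18, the protease that removes ISG15 and restrains the receptor, had 4.64 to 6.00 CPM in 2X cytokine and 5.28 to 9.73 CPM in 2X PBS. Herc6, the ISG15 ligase of the mouse, had 7.14, 10.9 and 9.90 CPM in 2X cytokine and 10.6, 13.7 and 11.5 CPM in 2X PBS. Its 1X values were 13.5, 7.68 and 9.34 CPM in 1X cytokine and 12.6, 9.42 and 8.12 CPM in 1X PBS. Usp18 and Herc6 overlapped in both pairs of groups, and in the 1X pair Usp18 had 0.549 to 8.85 CPM in 1X cytokine and 5.80 to 6.37 CPM in 1X PBS. Trim25, a ubiquitin ligase that activates RIG-I, was the member of this class without overlap, at 8.70 to 12.8 CPM in 2X cytokine and 18.0 to 21.6 CPM in 2X PBS.

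Parp9 and Dtx3l, whose products form a complex of an ADP-ribosyltransferase and a ubiquitin ligase, lie on opposite strands of chromosome 16 and overlap there, from base 35938470 to base 35939151, so reads of the shared stretch may be divided between them with error. Parp9 had 17.5, 17.3 and 22.8 CPM in 2X cytokine and 22.4, 21.3 and 24.6 CPM in 2X PBS, and 22.9, 20.7 and 17.6 CPM in 1X cytokine and 17.5, 26.3 and 26.7 CPM in 1X PBS. Dtx3l had 9.28, 8.67 and 9.30 CPM in 2X cytokine and 11.9, 12.3 and 13 CPM in 2X PBS, without overlap. Parp14, another ADP-ribosyltransferase, had 4.64, 6.03 and 4.20 CPM in 2X cytokine and 13.5, 8.45 and 9.47 CPM in 2X PBS, without overlap, and 9.34, 5.76 and 4.95 CPM in 1X cytokine against 5.71, 7.48 and 10.9 CPM in 1X PBS.

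Lgals3bp (chromosome 11, bases 118392751 to 118402092) and Rtp4 had the smallest p-values of the 33 genes in this comparison. Lgals3bp had 112, 139 and 131 CPM in 2X cytokine and 371, 272 and 353 CPM in 2X PBS, a log2 fold change of -1.38 (SE 0.30, edgeR adjusted p = 0.195). The fit of 6 libraries gave it an adjusted p of 3.56e-05, and the range over alternatives was 3.56e-05 to 0.619. Rtp4 (chromosome 16, bases 23520291 to 23614222), a chaperone of membrane receptors, had 6.78, 7.16 and 4.50 CPM in 2X cytokine and 16.1, 15.5 and 18.9 CPM in 2X PBS, a log2 fold change of -1.46 (SE 0.32, edgeR adjusted p = 0.204). Its adjusted p was 0.00283 in the fit of 6 libraries and ran from 0.00283 to 0.656 over the alternatives. Neither gene overlapped between the 2X groups, and Rtp4 had 9.51, 15.0 and 12.5 CPM in 1X PBS. Ifi27 had 97.5, 102 and 169 CPM in 2X cytokine and 170, 168 and 164 CPM in 2X PBS, so only its replicate 3 of 2X cytokine reached the 2X PBS level. In the 1X groups Ifi27 had 265, 104 and 132 CPM in 1X cytokine and 122, 237 and 222 CPM in 1X PBS. The summed choroid plexus markers were likewise highest in replicate 3 among the 2X cytokine libraries. Over all libraries that sum and Ifi27 were both highest in 1X cytokine replicate 1. The part of choroid plexus in Ifi27 was not tested.

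**Figure D3:**
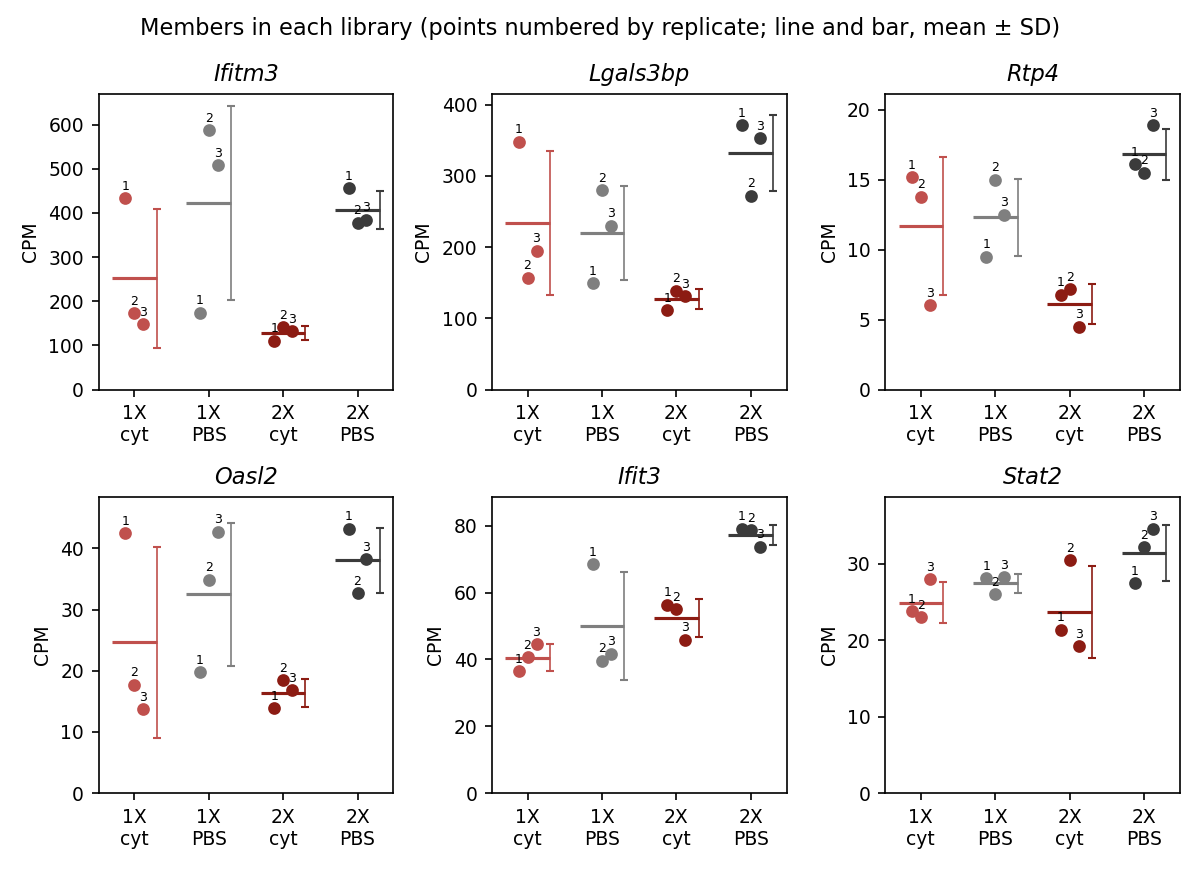
CPM of Ifitm3, Lgals3bp, Rtp4, Oasl2, Ifit3 and Stat2 in each library, grouped by label (1X or 2X, cyt for cytokine, and PBS); points are libraries numbered by replicate, lines are group means and bars 1 SD (n = 3). All but Stat2 are lower in every 2X cytokine library than in any 2X PBS library, and Ifitm3, Lgals3bp and Oasl2 show 1X cytokine replicate 1 high and 1X PBS replicate 1 low.

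Setting 1X cytokine against 1X PBS addresses the effect of a first exposure. By label, means were again lower in 1X cytokine for 28 of the 30 genes, with a median log2 fold change of -0.33 against -0.01 over all genes. The edgeR fit of 12 libraries called 0 genes of all, or 0%, and the fit of 6 libraries likewise 0%. Of the 30, 4 had an unadjusted p under 0.05, all lower, against 783 of all genes, and 0 of the 30 were free of overlap between the groups, against 6.18% of all genes. Without replicate 1 of both groups the median was -0.78 and 15 of 32 genes fell and 0 rose, while 11.5% of all genes were called lower and 23.5% in either direction. The 15 genes included Ifitm3 at -1.74, Trim25 at -1.46, Isg15 at -1.42 and Oasl2 at -1.26 on the log2 scale, and they were set against 2 libraries in each 1X group. In those libraries astrocyte markers summed to 12200 and 12900 TPM in 1X cytokine and 3700 and 2920 TPM in 1X PBS. The part of this difference in the counts was not tested. Leaving out 1X PBS replicate 1 alone gave 3 called genes of 32, against 7.55% of all genes.

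Rsad2 (chromosome 12, bases 26442746 to 26456452), which encodes the antiviral enzyme viperin, had the smallest p in the 1X comparison, with 26.3, 8.06 and 8.79 CPM in 1X cytokine and 19.8, 33.2 and 115 CPM in 1X PBS. Its log2 fold change was -1.90 (SE 0.64, edgeR adjusted p = 0.866), and the groups overlapped. Isg20 (chromosome 7, bases 78913424 to 78920396), an exonuclease of single-stranded RNA, had 22.9, 3.46 and 10.4 CPM in 1X cytokine and 10.3, 28.8 and 80.9 CPM in 1X PBS, a log2 fold change of -1.66 (SE 0.78, edgeR adjusted p = 0.866). For both genes 1X PBS replicate 3 was the highest of the 12 libraries.

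Samd9l had 8.85, 8.45 and 8.24 CPM in 1X cytokine and 8.75, 15.0 and 21.8 CPM in 1X PBS, a log2 fold change of -0.85 (SE 0.31, edgeR adjusted p = 0.866). Dhx58 had 3.69, 5.38 and 4.40 CPM in 1X cytokine and 4.56, 10.3 and 8.58 CPM in 1X PBS, with -0.82 (SE 0.36, edgeR adjusted p = 0.866). Dtx3l had 12.5, 13.1 and 10.4 CPM in 1X cytokine and 11.4, 17.5 and 23.0 CPM in 1X PBS, with -0.53 (SE 0.23, edgeR adjusted p = 0.866). In each of these 3 genes replicates 2 and 3 of 1X PBS were higher than replicate 1. Oas2 had 3.44, 0 and 0.549 CPM in 1X cytokine and 1.52, 4.71 and 7.65 CPM in 1X PBS, with -1.58 (SE 0.81, edgeR adjusted p = 0.866).

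In the 2X groups, Isg20 had 30.7, 10.2 and 4.50 CPM in 2X cytokine and 8.46, 9.86 and 8.29 CPM in 2X PBS, and Rsad2 had 23.6, 15.8 and 9 CPM in 2X cytokine and 20.3, 14.8 and 10.4 CPM in 2X PBS, and for both genes these groups overlapped. The 4 libraries with the most Isg20 and with the most Rsad2 were the same, namely 1X PBS replicates 3 and 2, 2X cytokine replicate 1 and 1X cytokine replicate 1. They were also the 4 with the highest summed level of 7 erythrocyte markers, which was 25900, 3440 and 9130 TPM in 1X cytokine, 21100, 52000 and 177000 TPM in 1X PBS, 47700, 18500 and 9340 TPM in 2X cytokine, and 13100, 7390 and 1730 TPM in 2X PBS. Whether red cell RNA has a part in these values was not tested.

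**Figure D4:**
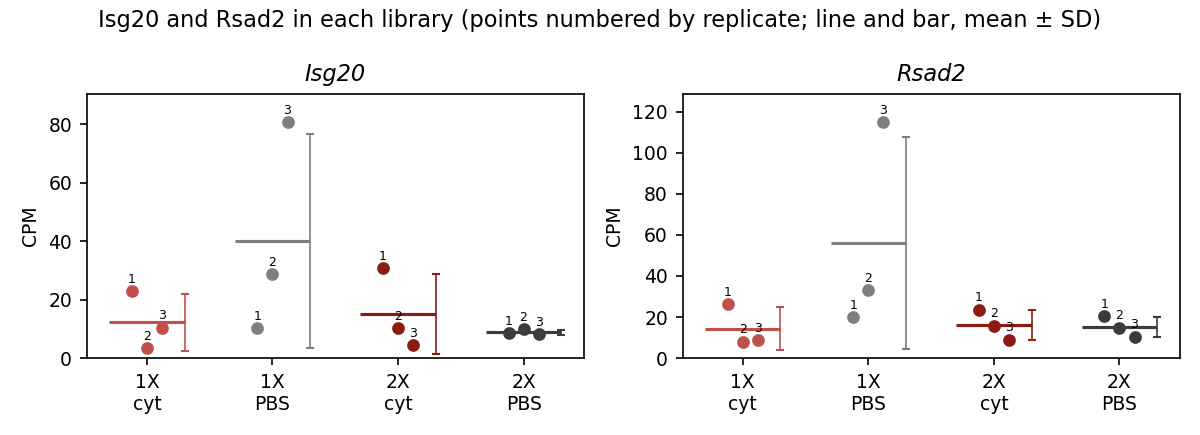
CPM of Isg20 and Rsad2 in each library, grouped by label (cyt, cytokine); points are libraries numbered by replicate, lines are group means and bars 1 SD (n = 3). Replicate 3 of 1X PBS is the highest for both genes, at 80.9 and 115 CPM, and the 2X cytokine and 2X PBS groups overlap.

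Setting 2X cytokine against 1X cytokine addresses repeated against first exposure. Means were lower in 2X cytokine for 21 of the 30 genes, with a median log2 fold change of -0.38 against -0.01 over all genes. None was called by the fit of 12 libraries, which called 0.0276% of all genes, or by the fit of 6, which called 0%, and 3 had an unadjusted p under 0.05, against 1015 of all genes. Of the 30, 5 were lower in every 2X cytokine library and 1 was higher, and 12.5% of all genes did not overlap. The median was 0.07 without 1X cytokine replicate 1, so the direction rested on that library. Without replicate 1 of both 1X groups it was 0.07 with 12 of 32 genes lower, 0 were called, and 0.0202% of all genes were called.

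Rtp4 had 6.78, 7.16 and 4.50 CPM in 2X cytokine and 15.2, 13.8 and 6.04 CPM in 1X cytokine, a log2 fold change of -0.98 (SE 0.33, edgeR adjusted p = 0.689), with overlap. Lgals3bp had 112, 139 and 131 CPM in 2X cytokine and 348, 157 and 195 CPM in 1X cytokine, with -0.88 (SE 0.29, edgeR adjusted p = 0.689). Ifitm3 differed by -0.98 (SE 0.44, edgeR adjusted p = 0.709), Dhx58 by -0.81 (SE 0.40, edgeR adjusted p = 0.728) and Ifih1 by -0.48 (SE 0.25, edgeR adjusted p = 0.751). Lgals3bp, Ifitm3, Dhx58 and Ifih1 did not overlap between these groups. Ifit3 was the gene that was higher without overlap, with 56.4, 55.0 and 45.9 CPM in 2X cytokine and 36.4, 40.7 and 44.5 CPM in 1X cytokine, a log2 fold change of 0.38 (SE 0.19, edgeR adjusted p = 0.740).

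Setting 2X PBS against 1X PBS addresses repeated injection without cytokines. Means were lower in 2X PBS for 17 of the 30 genes, with a median of -0.05 against -0.03 over all genes. Both edgeR fits called 0% of all genes, 3 of the 30 had an unadjusted p under 0.05 against 914 of all genes, and 1 was lower and 2 were higher without overlap, against 11.4% of all genes in either direction. Without replicate 1 of both 1X groups 4 genes fell and 2 rose among 32, and 18.6% of all genes were called. Without 1X PBS replicate 1 alone 4 of 32 genes were called, against 7.39% of all genes.

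Ifit3 had the smallest p, with 79.1, 78.7 and 73.7 CPM in 2X PBS and 68.5, 39.6 and 41.7 CPM in 1X PBS, a log2 fold change of 0.64 (SE 0.19, edgeR adjusted p = 0.640), without overlap. Ifit3b had 33.9, 27.6 and 25.2 CPM in 2X PBS and 31.2, 9.70 and 19.7 CPM in 1X PBS, with 0.53 (SE 0.33, edgeR adjusted p = 0.787). Ifit3 and Ifit3b were thus lowest, among the PBS libraries, in replicates 2 and 3 of 1X PBS, where Ifitm3 was highest. Lgals3bp had 371, 272 and 353 CPM in 2X PBS and 149, 280 and 230 CPM in 1X PBS, with 0.59 (SE 0.29, edgeR adjusted p = 0.776) and overlap. Lower values in 2X PBS were those of Rsad2, at -1.92 (SE 0.64, edgeR adjusted p = 0.660), of Isg20, at -2.18 (SE 0.80, edgeR adjusted p = 0.749) and without overlap, and of Dtx3l, at -0.49 (SE 0.23, edgeR adjusted p = 0.776).

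The cytokine responses of the 2X and 1X groups were compared directly by their difference, 2X minus 1X. It was negative for 22 of the 30 genes with a median of -0.27 against -0.01 over all genes. 0% of all genes were called, and 2 of the 30 had an unadjusted p under 0.05, against 754 of all genes. Lgals3bp had a difference of -1.47 (SE 0.41, edgeR adjusted p = 0.808) and Rtp4 of -1.42 (SE 0.44, edgeR adjusted p = 0.826). Rsad2 had 1.99 (SE 0.93, edgeR adjusted p = 0.940), Isg20 2.40 (SE 1.14, edgeR adjusted p = 0.940), Parp14 -0.82 (SE 0.48, edgeR adjusted p = 0.977) and Oasl2 -0.85 (SE 0.53, edgeR adjusted p = 0.987). The first pair had more negative fold changes in the 2X groups and the second pair in the 1X groups. Without replicate 1 of both 1X groups the median was 0.18 and 4 genes were called, Lgals3bp and Ifit3 as negative and Rsad2 and Isg20 as positive, while 9.33% of all genes were called. The edgeR fit of 12 libraries thus called no difference of response for any of the 30 genes.

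The ligands were almost absent from the counts. Of 21 interferon genes, 15 had no count in any library, the highest count in a library was 3, and the sum over all genes and libraries was 17. Ifnb1, the interferon of most tissue cells, had 3 counts in all. A count of 0 in a library allows up to 3 counts, or 0.543 to 1.6 CPM on unscaled totals. These limits cover counting error only.

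The receptor subunits were present in every group. Ifnar2 had 69.6, 71.2 and 57.6 CPM in 2X cytokine and 88.5, 87.1 and 80.8 CPM in 2X PBS, without overlap, and 98.6, 63.4 and 64.8 CPM in 1X cytokine and 78.4, 101 and 95.8 CPM in 1X PBS. Ifnar1 lay between 103 and 110 CPM in 2X cytokine and between 103 and 107 CPM in 2X PBS, and between 85.5 and 107 CPM in 1X cytokine and 104 and 121 CPM in 1X PBS. Of the 5 tested receptor genes 0 were called in any comparison by the fit of 12 libraries, and in the fit of the 6 libraries of the 2X groups 2 fell (all genes, 5.31% lower), the interferon gamma receptor gene Ifngr1 and Il10rb, a shared subunit that also serves interferon lambda. Without overlap, 3 of the 5 were lower in 2X cytokine than in 2X PBS, against 14.1% of all genes.

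Of 12 signalling genes 0 were called in any comparison by the fit of 12 libraries, and in the fit of the 6 libraries of the 2X groups 3 fell and 1 rose, against 7.74% of all genes called in either direction. Irf9, the DNA-binding partner of STAT2, had 28.6, 31.3 and 28.8 CPM in 2X cytokine and 54.2, 45.1 and 49.4 CPM in 2X PBS. Stat3, which transmits the signal of interleukin-6 and its relatives, had 157, 147 and 137 CPM in 2X cytokine and 289, 276 and 295 CPM in 2X PBS. Socs3, a feedback inhibitor of cytokine receptors, ran the other way, with 417, 433 and 355 CPM in 2X cytokine and 232, 252 and 251 CPM in 2X PBS. None of these 3 genes overlapped between the 2X groups. Of the 12 signalling genes, 6 were lower and 1 was higher without overlap, against 14.1% of all genes lower and 25.3% in either direction. In the 1X groups Socs3 had 289, 244 and 252 CPM in 1X cytokine and 261, 367 and 361 CPM in 1X PBS, and the direct test of the difference between both responses gave 1.05 (SE 0.22, edgeR adjusted p = 0.469).

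Of 19 genes listed that sense nucleic acids or relay that signal, 17 were found by symbol. Mb21d1 and Tmem173 were not matched, so they are missing from these counts. Of the 17 found, 14 were tested, with means lower in 2X cytokine for 10 of them and a median of -0.06. Of the 14, 0 were called by the fit of 12 libraries in any comparison, 4 were lower in 2X cytokine without overlap, against 14.1% of all genes, and 2 of 13 fell in the fit of the 6 libraries of the 2X groups, which called 5.31% of all genes as lower. Irf3, the factor that drives interferon genes, had 48 to 64.5 CPM and Mavs, the adaptor of RIG-I and MDA5, 71.0 to 116 CPM over the 12 libraries. Trex1, a DNase that limits cytosolic DNA, had 19.2, 15.0 and 9.89 CPM in 1X cytokine and 24.0, 33.8 and 30.8 CPM in 1X PBS, without overlap, a log2 fold change of -0.97 (SE 0.22, edgeR adjusted p = 0.866). In the 1X groups 1 of the 14 was lower without overlap and 0 were higher, against 6.18% of all genes in either direction.

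A list of 53 further interferon-stimulated genes, of which 40 were tested, gave medians of the same sign. This list was also chosen with earlier results of these data known, so it is not an independent test of that sign. Means were lower in 2X cytokine than in 2X PBS for 39 of the 40, with a median of -0.83, and 23 were lower without overlap, against 14.1% of all genes. The fit of 12 libraries called 0 of them, with 16 at an unadjusted p under 0.05, and in the fit of the 6 libraries of the 2X groups 13 of 35 fell, against 5.31% of all genes. Means were lower in 1X cytokine than in 1X PBS for 35 of the 40, with a median of -0.74 and 0 called. Without replicate 1 of both 1X groups the median was -1.49, and 24 of 41 genes fell and 1 rose. That fit called 11.5% of all genes as lower and 23.5% in either direction. The choice of the libraries left out, made by Lcn2 and Gfap, bears on these counts as well. Ifitm1, a neighbour and relative of Ifitm3, had 5.71, 15.8 and 5.70 CPM in 2X cytokine and 136, 144 and 136 CPM in 2X PBS, and 172, 26.5 and 10.4 CPM in 1X cytokine and 21.7, 284 and 292 CPM in 1X PBS. B2m, the light chain of MHC class I, had 153, 169 and 122 CPM in 2X cytokine and 286, 302 and 343 CPM in 2X PBS, and the immunoproteasome gene Psmb8 had 8.57, 10.2 and 8.10 CPM in 2X cytokine and 37.2, 34.0 and 29.0 CPM in 2X PBS. None of these 3 genes overlapped between the 2X groups. Leukocytes also express them, and their part was not tested.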

How the data were processed

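RNA was measured by SMART-Seq2 in 12 libraries of sorted astrocytes, 3 in each of 4 groups. The deposited tables hold estimated counts, effective lengths and TPM for 142604 transcripts each, made by the authors with kallisto 0.46.1 on mouse transcripts, per the labels' protocols and the file headers; GRCm38 is named as build per the submitters' processing notes. Estimated counts were summed per gene and rounded to whole numbers, and TPM were summed per gene. GENCODE M21 (GRCm38) gave gene positions for 98.1% of genes, and promoter windows are those of RefSeq.

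Counts were tested with edgeR 4.0.16 (R 4.3.3), using filterByExpr, TMM scaling and the quasi-likelihood test over all 12 libraries, with Benjamini-Hochberg adjustment over all 14490 genes tested and a threshold of 0.05. A fit of the 6 libraries compared, DESeq2 1.42.0, limma 3.58.1 on log2(TPM + 1) and log2(TPM + 0.1), voom with quality weights, RLE scaling, an effective length offset, other filters, a replicate block and leaving out each library were alternatives. Since the labels do not tie libraries to animals, p-values reflect only how these libraries vary, possibly for technical reasons. Values in every library are given for the 6 genes of smallest p in each comparison and the 2 most abundant of each role, fold changes with p only for the first kind; other genes are given as ranges or counts. Of each pathway list, genes were named from the 3 of highest mean TPM and the 3 of smallest p over the 5 comparisons. The genes and the lists were chosen with earlier results of these data known. Figures were drawn with matplotlib 3.10.9.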

Additional observations from a re-analysis of the deposited data

How the results depend on the processing

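The number of the 30 genes called was 0 in each of the 5 comparisons in the edgeR fit of 12 libraries and depended on the setting; the cause was not tested. In 1X cytokine against 1X PBS it was 2 with no filter on low counts, 5 with voom quality weights, 15 with both 1X replicate 1 libraries left out, and 0 to 3 with 1 library left out, 3 being without 1X PBS replicate 1. In 2X cytokine against 2X PBS it was 3 with DESeq2, 5 with no filter, 6 with voom, 7 in the fit of the 6 libraries, 8 with both left out, and 0 to 2 with 1 library left out, 2 being without 1X PBS replicate 1. In 2X cytokine against 1X cytokine it was 1 with no filter. In 2X PBS against 1X PBS it was 2 with no filter, 7 with voom, 6 with both left out, and 0 to 4 with 1 library left out, 4 being without 1X PBS replicate 1. In the difference of responses it was 1 with no filter and 4 with both left out. The median log2 fold change was -0.78 with both left out in 1X cytokine against 1X PBS, and in 2X cytokine against 1X cytokine it was 0.07 with both left out and -0.48 to 0.07 with 1 library left out. It was 0.27 and 0.28 with limma at pseudocounts of 1 and 0.1 in 2X PBS against 1X PBS, and in the difference it was 0.05 with voom and 0.18 with both left out. In 2X cytokine against 2X PBS it stayed between -0.75 and -0.51 with 1 library left out. Dhx58 changed sign in 1X cytokine against 1X PBS with limma, at 0.11 and 0.12, and Oasl2 in the difference with both left out, at 0.09. Of all genes, no filter called 0.748%, voom 12.3% and the fit without 1X PBS replicate 1 7.55% in 1X cytokine against 1X PBS. In 2X cytokine against 2X PBS, DESeq2 called 0.787%, no filter 1.37%, voom 3.13% and the fit without 1X PBS replicate 1 0.827%. In 2X PBS against 1X PBS, no filter called 0.289%, voom 18.6% and the fit without 1X PBS replicate 1 7.39%. No filter called 0.575% in 2X cytokine against 1X cytokine and 0.208% in the difference. With a replicate block 0 of the genes were called in any comparison, with medians of -0.31, -0.61, -0.33, -0.05 and -0.28. Deviations of same-numbered libraries correlated at -0.62 to 0.16. With 3 libraries per group and replicate 1 of both 1X groups standing apart, this cannot decide whether the numbers pair the libraries. Depth limits genes such as Zbp1, Oas2 and the interferons, at or near the floor of 3 counts.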

Other observations

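Microglia markers, 12 genes, summed to 368 to 719 TPM in 2X cytokine and 665 to 958 TPM in 2X PBS, and to 446 to 823 TPM in 1X cytokine and 516 to 1050 TPM in 1X PBS, with none at 0 in any library. Markers of T cells and NK cells summed to 8.4 to 16.6 TPM in both cytokine groups and 14.5 to 25.7 TPM in both PBS groups. Up to 9 of these 12 markers were at 0 in a library and 2 passed the filter on low counts, so the sums lie near the floor. Oligodendrocyte markers summed to 3810 to 4620 TPM in 2X cytokine and 1960 to 2870 TPM in 2X PBS, and to 2560 to 4550 TPM in 1X cytokine and 2720 to 4010 TPM in 1X PBS. The 33 genes themselves summed to 990, 1147 and 1157 TPM in 2X cytokine and 2562, 2132 and 2216 TPM in 2X PBS, and to 2475, 1151 and 1176 TPM in 1X cytokine and 1214, 2789 and 2181 TPM in 1X PBS. The part of any of these cell types in that sum was not tested.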
